A study of Mus musculus with 24 samples.

Results

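The genes described here encode the proteins that bind the poly(A) tail of mRNA and the CPEB proteins that control tail length in the oocyte cytoplasm. They were chosen as a list of 9 symbols, Pabpn1, Pabpn1l, Pabpc1, Pabpc1l, Pabpc4 and Cpeb1 to Cpeb4, and each was matched to 1 of the 55471 annotated genes of the deposited tables. The 9 genes lie on 9 different chromosomes.

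A poly(A) tail is added to an mRNA in the nucleus, where PABPN1 binds it and helps to set its length. In the cytoplasm the PABPC proteins coat the tail, contact the translation initiation factor eIF4G at the other end of the mRNA and so favour translation. The growing oocyte stores many mRNAs with short tails. CPEB proteins bind a U-rich element near the end of such mRNAs and either mask them or, after phosphorylation, promote lengthening of the tail, so that in the silent oocyte and early zygote the tail takes the place of transcription as a point of control. Oocytes also express dedicated relatives of both kinds of PABP. PABPC1L, also called embryonic PABP, is the main cytoplasmic PABP of the oocyte, and PABPN1L is an oocyte protein that recruits the BTG4 and CCR4-NOT deadenylation machinery to maternal mRNA.

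MII oocytes, late 1-cell embryos (L1C) and late 2-cell embryos (L2C) of wild-type B6D2F1 mice were profiled by SLIM-seq, an m6A immunoprecipitation protocol for low input, with 3 IP libraries and 3 Input libraries at each of the 3 stages. The oocytes were taken from superovulated females of 8 weeks and stripped of cumulus cells, and the embryos came from natural mating of superovulated females and were cultured in KSOM. In a second experiment, Cas13d mRNA with 3 crRNAs against Ythdc1, a nuclear m6A reader, was injected into the cytoplasm of wild-type zygotes (KD, 3 libraries), and control zygotes received Cas13d mRNA only (Ctrl, 3 libraries). The injected embryos were collected at L2C, so both groups carry Cas13d and neither carries a non-targeting crRNA. The labels do not say that replicates came from separate collections, so p-values measure the spread between these libraries, which may be technical. In bulk libraries of this kind, fewer cells of a type and less RNA per cell cannot be told apart.

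The SLIM-seq libraries held between 11107421 and 39739950 estimated counts, assigned to whole gene spans with introns included. Within its group, IP replicate 2 of L2C, the library with the fewest counts, differed most from the others, with a mean chi-square per gene of 37.06 and 25.04 against 8.634 between replicates 1 and 3. Input replicate 2 of L2C (24.63 and 23.73 against 11.9) and Input replicate 1 of MII (13.82 and 20.3 against 5.568) also stood further from their groups. So did IP replicate 2 of MII (18.14 and 32.58 against 8.339), Input replicate 1 of L1C (27.92 and 30.03 against 15.91) and IP replicate 3 of L1C (31.75 and 27.89 against 16.21). Leaving out either of these L2C libraries or IP replicate 2 of MII changed no call among the 9 genes, and the calls lost without Input replicate 1 of MII, Input replicate 1 of L1C or IP replicate 3 of L1C are given beside each result. The merged KD table held between 3276715 and 5463868 exon counts per library and covered 4 of the 9 genes, Cpeb1, Cpeb2, Pabpc1l and Pabpc4. The other 5 genes were read from the whole-annotation files of 2 KD and 3 Ctrl libraries, with 8696476 to 14500548 counts each. The file of KD replicate 3 stopped before these 5 genes and could not be used for them. Ythdc1 itself fell to 49.9% of its Ctrl level in the KD libraries (2.01-fold lower, SE 0.0622 on the log2 scale, adjusted p = 1.34e-10). In the inputs, the summed level of 9 oocyte markers went from 18870–19880 normalised counts (CPM, scaled to a common library size) at MII to 6799–6890 at L1C and 879.5–908.3 at L2C, and all 9 were above 3 counts at each stage. The summed level of 8 markers of the late 2-cell embryo went the other way, from 29.3–35.3 at MII to 95.4–128.6 at L1C and 389.5–522.4 at L2C. Cumulus markers, 11 in the list, summed to 40.8–49.0 CPM at MII, 29.0–34.3 at L1C and 3.86–4.91 at L2C, with Ptx3 at 0 throughout. Sperm markers, 6 in the list, summed to 2.85–3.75 CPM at MII and 2.86–2.92 at L1C. At L2C they summed to 55.6–73.7, with Tnp1 and Akap4 at 0 and only 2 of the 6 above 3 counts. In the Ctrl embryos of the second experiment, also at L2C, their sum was 2.105–4.134 CPM. The part of these other markers in the results below was not tested.

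The promoters of the nuclear-type pair are shown because these genes exchanged places between L1C and L2C. Both are RefSeq promoters on GRCm38.p6, 300 bases long with 250 bases before the transcription start and 50 after it. Promoters of 7 of the 9 genes were matched, all but Pabpc1 and Cpeb2. Capitals mark CAGCTG, an E-box, in the first and CCAAT in the second, both searched on both strands. The first is Pabpn1l at chr8:122622686-122622985 on the minus strand, and the second is Pabpn1 at chr14:54893893-54894192 on the plus strand.
Pabpn1l promoter: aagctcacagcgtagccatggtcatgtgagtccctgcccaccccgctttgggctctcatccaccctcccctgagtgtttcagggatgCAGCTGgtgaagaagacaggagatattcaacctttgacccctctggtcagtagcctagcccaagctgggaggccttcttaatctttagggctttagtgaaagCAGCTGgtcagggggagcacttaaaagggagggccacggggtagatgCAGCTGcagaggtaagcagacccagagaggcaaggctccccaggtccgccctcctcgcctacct
Pabpn1 promoter: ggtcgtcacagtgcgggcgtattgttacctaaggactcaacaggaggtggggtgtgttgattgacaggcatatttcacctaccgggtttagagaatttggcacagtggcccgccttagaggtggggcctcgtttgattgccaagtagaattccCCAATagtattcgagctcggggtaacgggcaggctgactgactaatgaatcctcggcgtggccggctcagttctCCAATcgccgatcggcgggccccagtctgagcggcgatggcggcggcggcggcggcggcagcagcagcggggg
The Pabpn1l promoter held 3 copies of CAGCTG. Of 32851 RefSeq promoters of the same length, 16.3% held at least 1 copy and 0.21% held 3 or more. CCAAT stood 2 times in the Pabpn1 promoter and was present in 37.4% of all promoters. TATAAA, found in 13.6% of promoters, was present once each in those of Cpeb1 and Pabpc4. These motifs were picked after the sequences had been seen, and a match describes letters in a window, not a bound site.

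Pabpn1 had the most copies per kb, among the 9 mRNAs, of GGACT, the most frequent form of the m6A consensus. Whether this count goes with the IP values below was not tested, and Cpeb1, next in order, was depleted in IP. Its annotated mRNA held 7 copies, or 3.94 per kb, against a median of 1.02 per kb over 19646 mRNAs, of which 90.6% held at least 1. The 6 windows that lie within 1 exon are shown on GRCm38, plus strand, with GGACT in capitals. The first 3 are in the coding sequence and the last 3 in the 3' UTR.
chr14:54894279-54894299: ggcgcaggGGACTacgggaac
chr14:54894442-54894462: aagagccgGGACTggttgagg
chr14:54897189-54897209: ccgtgcccGGACTaccaacta
chr14:54897371-54897391: ggttgcagGGACTtggtcctg
chr14:54897562-54897582: cactgtttGGACTtggttatt
chr14:54897631-54897651: gcgtgggaGGACTgttcccaa
The other mRNAs held GGACT 1.93 times per kb (Cpeb1), 1.02 (Cpeb3), 0.87 (Pabpn1l), 0.85 (Cpeb2), 0.35 (Pabpc1) and 0.32 (Cpeb4), and those of Pabpc1l and Pabpc4 held none. Among the 9 mRNAs, only that of Pabpc4 carried a cytoplasmic polyadenylation element of the form TTTTAT or TTTTAAT in its last 100 bases, which 17.8% of all mRNAs do. The window is at chr4:123298842-123298871, plus strand, with the element in capitals, 82 bases from the mRNA end.
Pabpc4 element: agTTTTATgttacaatcttgggcttttgct
GGACT and the polyadenylation element were searched on the mRNA strand only.

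The nuclear-type pair changed over almost completely between L1C and L2C. Pabpn1l gave most of the signal in the oocyte and the 1-cell embryo and Pabpn1 in the 2-cell embryo. Pabpn1l (chr8:122619471-122622739) was at 832, 811 and 734 CPM in the 3 MII inputs, at 310, 386 and 433 in the L1C inputs, and at 5.88, 6.85 and 4.99 in the L2C inputs. No library of one stage overlapped another stage. Its level fell 2.1-fold from MII to L1C (log2 change −1.07, SE 0.143, adjusted p = 2.46e-05) and 64.2-fold from L1C to L2C (SE 0.181 on the log2 scale, adjusted p = 2.06e-12). By size of the fitted fall it ranked 127 among the genes that were lower at L2C than at L1C.

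Pabpn1 (chr14:54892500-54898169) was low before L2C, with 4.01, 3.15 and 3.38 CPM at MII and 2.66, 2.83 and 4.15 at L1C. Those libraries overlapped, and the change was within the spread (log2 change −0.15, SE 0.195, 95% interval −0.528 to 0.237, adjusted p = 0.55). At L2C it stood at 516, 647 and 575 CPM, 182-fold above L1C (SE 0.2 on the log2 scale, adjusted p = 8.86e-13). Per kb of annotated exon, Pabpn1l made up 99.83% ± 0.0193 (SD, n = 3) of the sum of the pair at MII and 99.67% ± 0.0438 at L1C, and 2.532% ± 0.339 at L2C. The sum itself went from 665 ± 43.3 CPM per kb at MII to 317 ± 52.3 at L1C and 196 ± 22.2 at L2C, so the pair lost less signal than Pabpn1l alone. Reads of Pabpn1 can be shared with Gm20521, a read-through gene on the same strand with 381 identical bases, which had 3–14 estimated counts at MII, 9–12 at L1C and 1099–2278 at L2C. Pabpn1l lies inside the span of Gm20388 on the opposite strand, which had 45117–74187 estimated counts at L2C. The share of these reads that belongs to each gene was not tested.

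**Figure D1:**
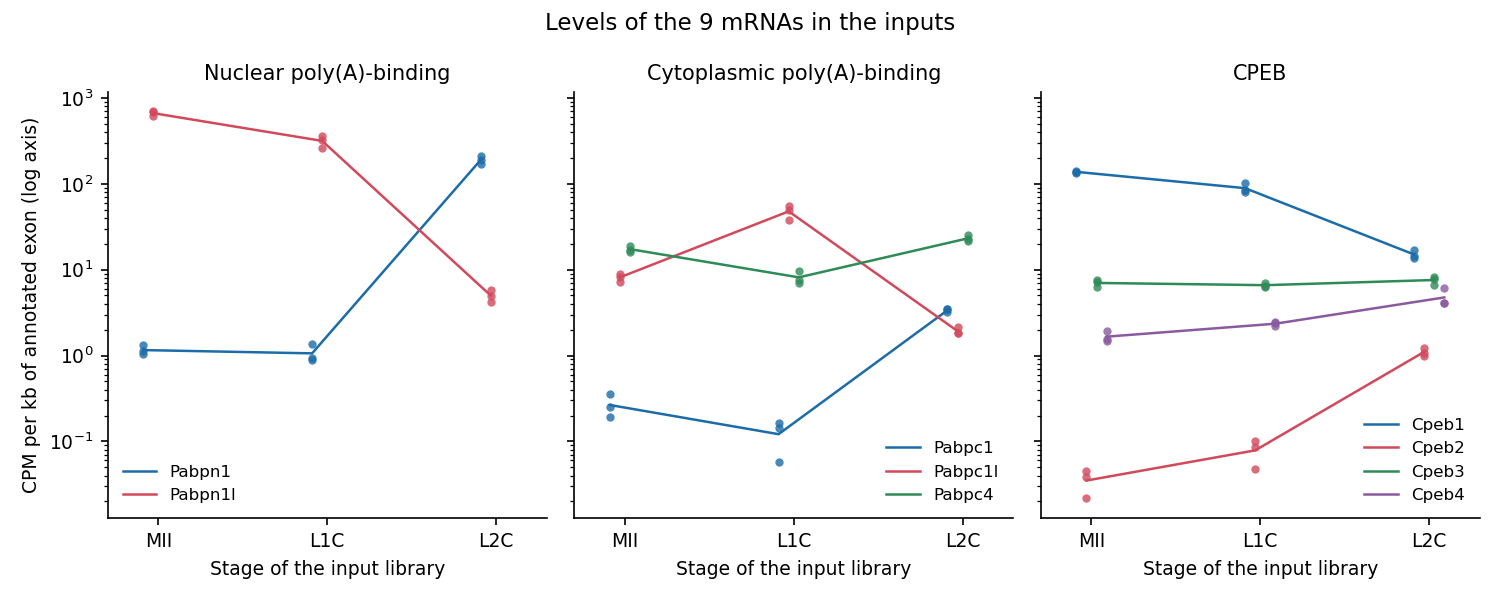
Levels of the 9 genes in the inputs by stage, in CPM per kb of annotated exon on a log axis, with 1 point for each library and a line through the stage means. Panels hold the nuclear-type PABPs, the cytoplasmic PABPs and the CPEBs, and the lines of Pabpn1l and Pabpn1 cross between L1C and L2C, while Cpeb3 stays nearly level.

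The cytoplasmic PABPs followed 3 separate courses. Pabpc1l, the embryonic PABP (chr2:164025450-164050538), was highest at L1C. The MII inputs gave 24.3, 22.4 and 19.8 CPM, the L1C inputs 103, 135 and 152, and the L2C inputs 4.93, 5.81 and 4.99. The stages did not overlap. The gain from MII to L1C was 5.86-fold (log2 change 2.55, SE 0.161, adjusted p = 1.65e-08) and the loss from L1C to L2C was 24.9-fold (log2 change −4.64, SE 0.179, adjusted p = 1.64e-11). The labels name poly(A) RNA as the molecule and a stranded total RNA kit in the library protocol, whereas the study's methods describe oligo-dT priming. Whether a change of tail length contributes to a change of level in these inputs was not tested.

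Pabpc1, the general cytoplasmic PABP of somatic cells (chr15:36595661-36609668), had few counts before L2C. It was at 1.25, 1.65 and 2.31 CPM at MII and at 0.931, 0.371 and 1.08 at L1C, which corresponds to 29–41 and 8–22 estimated counts. The fall from MII to L1C was 2.17-fold (SE 0.337 on the log2 scale, adjusted p = 0.0117), and it missed the threshold without MII replicate 3 (adjusted p = 0.0558). At L2C its values were 22.5, 20.8 and 22.7 CPM, all far above the earlier libraries. Pabpc1 thus rose 27.8-fold from L1C to L2C (log2 change 4.80, SE 0.305, adjusted p = 2.07e-09).

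Pabpc4, the inducible PABP (chr4:123262351-123298925), dipped at L1C. It was at 65.4, 68.7 and 75.2 CPM at MII, at 28.3, 39.1 and 30.7 at L1C, and at 91.7, 86.8 and 101 at L2C. It fell 2.13-fold from MII to L1C (log2 change −1.09, SE 0.141, adjusted p = 1.81e-05) and rose 2.85-fold from L1C to L2C (log2 change 1.51, SE 0.142, adjusted p = 1.55e-07). The net gain from MII to L2C was 1.33-fold (SE 0.138 on the log2 scale, adjusted p = 0.0116) and was not called without MII replicate 1 (adjusted p = 0.0573) or L2C replicate 3 (adjusted p = 0.0638).

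Pabpc4 has 9 annotated processed copies that match its exons at 90% identity or more over at least 200 bases, and the estimated counts were divided among them. In the inputs, the copies held 67.8–70.0% of the counts of Pabpc4 and its copies together at MII, 65.7–72.8% at L1C and 81.5–85.3% at L2C. Gm10110 on chromosome 14 held nearly all of the copies' counts at MII and L1C, with 2885–3540 and 1483–1578, and 2045–3378 at L2C. The other 8 copies together went from 6–8 at MII and 36–39 at L1C to 8549–14226 at L2C. With Pabpc4 and its copies summed, a setting added after the data were seen, the log2 change was −1.08 from MII to L1C, 2.36 (SE 0.129) from L1C to L2C and 1.28 (SE 0.125, adjusted p = 2.12e-07) from MII to L2C. The direction was the same, and the net gain was larger than for Pabpc4 alone. In the exon counts of Ctrl embryos at L2C, which leave out multimapping reads, Gm10110 had 20–30 counts and the other 8 copies 1356–1961. How many of the estimated counts of the inputs come from the copies themselves was not tested.

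**Figure D2:**
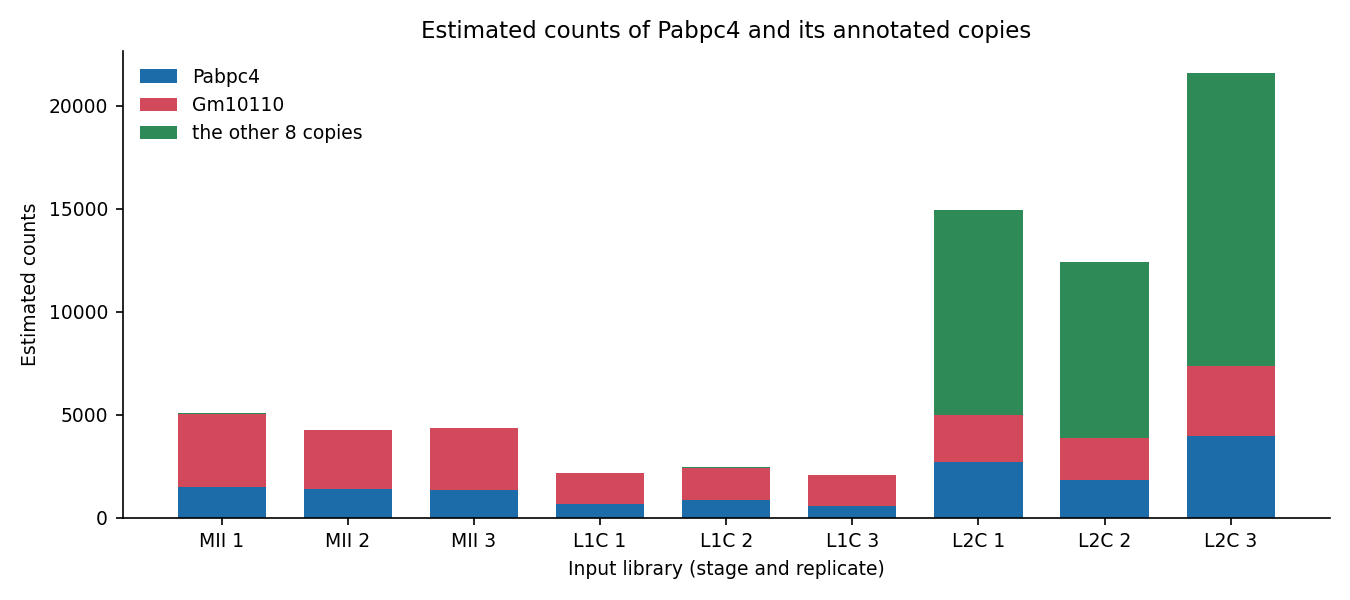
Stacked estimated counts of Pabpc4, of its copy Gm10110 and of the other 8 copies in each of the 9 input libraries, on a linear axis from 0. The other 8 copies are nearly absent at MII and L1C and hold 8549 to 14226 counts at L2C, more than Pabpc4 itself.

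Of the sum of the 3 cytoplasmic genes per kb of exon, Pabpc4 made up 67.32% ± 3.49 (SD, n = 3) at MII, only 14.66% ± 2.33 at L1C and again most of it, 81.34% ± 1.17, at L2C. The Pabpc1l share went from 31.65% ± 3.79 to 85.11% ± 2.29 and then 6.809% ± 1.0. Pabpc1 held 1.028% ± 0.297, 0.2235% ± 0.114 and 11.85% ± 0.439. Pabpc1l led at L1C and Pabpc4 at the other two stages, on counts that leave out the copies and that include introns. The order at L2C depended on the scale. The Pabpc1 share there was 36.6% ± 0.968 with deposited TPM, still below Pabpc4 at 58.5% ± 1.28, and 63.4% ± 0.573 with exon counts of Ctrl embryos, above Pabpc4 at 35.9% ± 0.442.

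The CPEB family passed from one dominant member to a mixture. Cpeb1, the factor best known for activating stored mRNAs during oocyte maturation (chr7:81347026-81455465), was at 589, 563 and 580 CPM at MII, at 352, 333 and 433 at L1C, and at 57.3, 70.6 and 61.2 at L2C. The stages did not overlap. It fell 1.55-fold from MII to L1C (log2 change −0.63, SE 0.127, adjusted p = 0.000787) and 5.91-fold from L1C to L2C (log2 change −2.56, SE 0.135, adjusted p = 2.96e-10). Cpeb1 made up 94.06% ± 0.276 (SD, n = 3) of the CPEB sum per kb at MII, 90.71% ± 0.897 at L1C and 52.88% ± 6.12 at L2C, while the sum dropped from 146 ± 3.17 to 97.9 ± 12.9 and 28.5 ± 0.653 CPM per kb. At L2C the share of Cpeb1 was 38.7% ± 5.99 with deposited TPM and 22.5% ± 1.35 with exon counts of Ctrl embryos, where Cpeb4 led with 65.1% ± 0.571.

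Cpeb4, which acts after Cpeb1 in meiosis (chr11:31872211-31935634), went up in both steps. It was at 9.35, 9.99 and 12.3 CPM at MII, at 15.6, 15.2 and 14.0 at L1C, and at 38.6, 25.9 and 26.1 at L2C, with no overlap between stages. The second gain was 2.02-fold (log2 change 1.02, SE 0.184, adjusted p = 0.000133). The first was 1.42-fold (log2 change 0.50, SE 0.188, adjusted p = 0.0339) and was lost without MII replicate 1, MII replicate 2, L1C replicate 1 or L1C replicate 2, with adjusted p = 0.119, 0.107, 0.0709 and 0.0721 in that order.

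Cpeb2, a member that can repress translation elongation (chr5:43233170-43289724), was barely detected before L2C. Its 3–7 estimated counts at MII and 7–17 at L1C gave 0.302, 0.350 and 0.169 CPM and 0.677, 0.789 and 0.377 CPM. At L2C it reached 8.38, 7.76 and 9.67 CPM, a 13.7-fold rise over L1C (log2 change 3.78, SE 0.292, adjusted p = 1.81e-08). The difference between MII and L1C was called (log2 change 1.15, SE 0.404, adjusted p = 0.0258) but not without MII replicate 1, MII replicate 3, L1C replicate 1 or L1C replicate 2, with adjusted p = 0.0505, 0.0921, 0.0624 and 0.0964. Antisense reads can add to it, since Gm7854 overlaps its start on the other strand and had 77–174 estimated counts in the inputs.

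Cpeb3 (chr19:37021291-37208601), a repressor described mainly in neurons, was the one gene of the 9 whose input level passed the test in none of the 3 stage comparisons. It was at 56.0, 53.2 and 46.6 CPM at MII, at 48.2, 46.2 and 52.2 at L1C, and at 61.6, 48.7 and 58.2 at L2C, and the 3 groups overlapped. The log2 change was −0.09 (SE 0.133, 95% interval −0.348 to 0.172, adjusted p = 0.598) from MII to L1C and 0.20 (SE 0.132, 95% interval −0.0574 to 0.46, adjusted p = 0.169) from L1C to L2C. The second comparison was called under DESeq2 (log2 change 0.33, adjusted p = 0.0173) and under library size scaling (0.30, adjusted p = 0.0478).

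Counted over the 9 genes, 3 were called higher and 4 lower from MII to L1C, where 31.9% of all genes tested were higher and 24.3% lower. From L1C to L2C, 5 were higher and 3 lower, against 44.1% and 38.8% of all genes. From MII to L2C, 5 were higher and 3 lower, against 47.5% and 37.1%. By size, Pabpn1 ranked 450 among the genes that were higher at L2C than at L1C, while Pabpc1 ranked 1680, Cpeb2 2734, Pabpc4 6597 and Cpeb4 7780. Groups did not overlap for 7, 8 and 8 of the 9 genes in the 3 comparisons. The same count was not made over all genes tested, so these numbers do not set the 9 genes apart from other genes.

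Ordered by level per kb of exon, the 9 genes ran at MII from Pabpn1l (664 ± 43.2 CPM per kb, SD, n = 3) and Cpeb1 (138 ± 3.08) through Pabpc4, Pabpc1l, Cpeb3, Cpeb4, Pabpn1 and Pabpc1 to Cpeb2 (0.0350 ± 0.0120). Only Pabpc1l and Cpeb3, neighbours in that order, overlapped. At L1C the order began with Pabpn1l (316 ± 52.1), Cpeb1 (88.9 ± 12.6) and Pabpc1l (47.7 ± 9.05), and the neighbours Pabpc4 and Cpeb3 overlapped, as did Pabpc1 and Cpeb2. At L2C it began with Pabpn1 (191 ± 21.7), Pabpc4 (23.1 ± 1.78) and Cpeb1 (15.0 ± 1.64), and Pabpn1l (4.95 ± 0.783) overlapped Cpeb4 (4.75 ± 1.14). The deposited TPM values, which are per gene span, put Pabpc1l above Cpeb1 at L1C and Pabpn1 in place 5 at MII and L1C, above Cpeb3 and Cpeb4, so the order of genes with very different intron content depends on the length used.

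Exon counts of the Ctrl embryos gave a second order at L2C, from Pabpn1 (299 ± 8.05 CPM per kb, SD, n = 3) and Pabpc1 (39.3 ± 1.10) through Pabpc4, Cpeb4, Cpeb1, Cpeb3, Cpeb2 and Pabpc1l to Pabpn1l (0.424 ± 0.308). In this order Pabpc4 overlapped Cpeb4, Cpeb3 overlapped Cpeb2, and Pabpc1l overlapped Pabpn1l. Pabpn1 led both orders. By its mean, Pabpn1l was last here and in place 5 in the inputs, and Pabpc1 stood in place 2 here and in place 7 in the inputs. Its mean was 257 CPM in Ctrl and 22.0 CPM in the L2C inputs, a ratio of 11.7 that lay at percentile 97.6 of 12741 genes, whose median ratio was 0.927. The same ratio was 4.29 for Cpeb4, 0.964 for Pabpc4, 0.471 for Cpeb1 and 0.0857 for Pabpn1l. The 2 experiments differed in embryo treatment, library and counting, which cannot be told apart here, so the level of Pabpc1 at L2C is uncertain by that factor.

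For each gene, the 3 genes with the most similar course over the 9 inputs were found by the root mean square (RMS) difference of centred log2 CPM. Pabpn1l was nearest to Rgs2 (RMS 0.272), Oas1e (0.329) and Zar1 (0.363), which are all abundant in the oocyte. Pabpn1 was nearest to Impdh1 (0.245), Slc25a33 (0.267) and Ficd (0.291), and Pabpc1l to Gm6018 (0.195), Rnaset2a and Fam160a1 (both 0.264). Rnf34 and Mdh1 (both 0.095) and Prpf6 (0.0964) were nearest to Cpeb1, and Kif5b (0.0902), Glud1 (0.0941) and Ndufb6 (0.106) to Pabpc4. The flat course of Cpeb3 was closest to those of Bnip3l-ps (0.0899), Phtf2 (0.0911) and Abca13 (0.104). The nearest genes were Nxt2 (0.154) for Cpeb4, Hccs (0.185) for Cpeb2 and Rps3a2 (0.3) for Pabpc1.

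IP against input addressed which of these mRNAs were m6A-tagged at each stage. The 2 nuclear-type genes lay on opposite sides of input, with Pabpn1 enriched and Pabpn1l depleted at all 3 stages. CPM in these comparisons were scaled over IP and input libraries together and so differ from those above. Pabpn1 was at 4.90, 3.78 and 4.02 CPM in MII input and at 14.9, 18.7 and 13.4 in IP. At L1C it was at 3.05, 3.22 and 4.66 in input and at 10.7, 11.4 and 10.2 in IP. At L2C it was at 499, 614 and 557 in input and at 834, 732 and 773 in IP. Input and IP did not overlap at any stage. The enrichment was 3.69-fold at MII (log2 1.88, SE 0.166, adjusted p = 3.19e-08), 2.97-fold at L1C (1.57, SE 0.167, adjusted p = 6.68e-07) and 1.4-fold at L2C (0.49, SE 0.138, adjusted p = 0.00787). The inputs held 60–93 estimated counts of Pabpn1 at MII and 61–77 at L1C.

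The drop of Pabpn1 enrichment itself passed the test. It fell by 1.08 on the log2 scale from L1C to L2C (SE 0.216, adjusted p = 0.00417) and by 1.40 from MII to L2C (SE 0.215, adjusted p = 0.000128). Pabpn1l was at 1018, 973 and 873 CPM in MII input and at 394, 497 and 404 in IP, at 355, 439 and 487 against 198, 212 and 206 at L1C, and at 5.69, 6.49 and 4.83 against 2.71, 0.942 and 2.33 at L2C. IP stood below input in every case, 2.21-fold at MII (log2 −1.14, SE 0.18, adjusted p = 4.21e-05), 2.08-fold at L1C (SE 0.18, adjusted p = 0.000139) and 2.6-fold at L2C (log2 −1.38, SE 0.221, adjusted p = 6.08e-05).

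**Figure D3:**
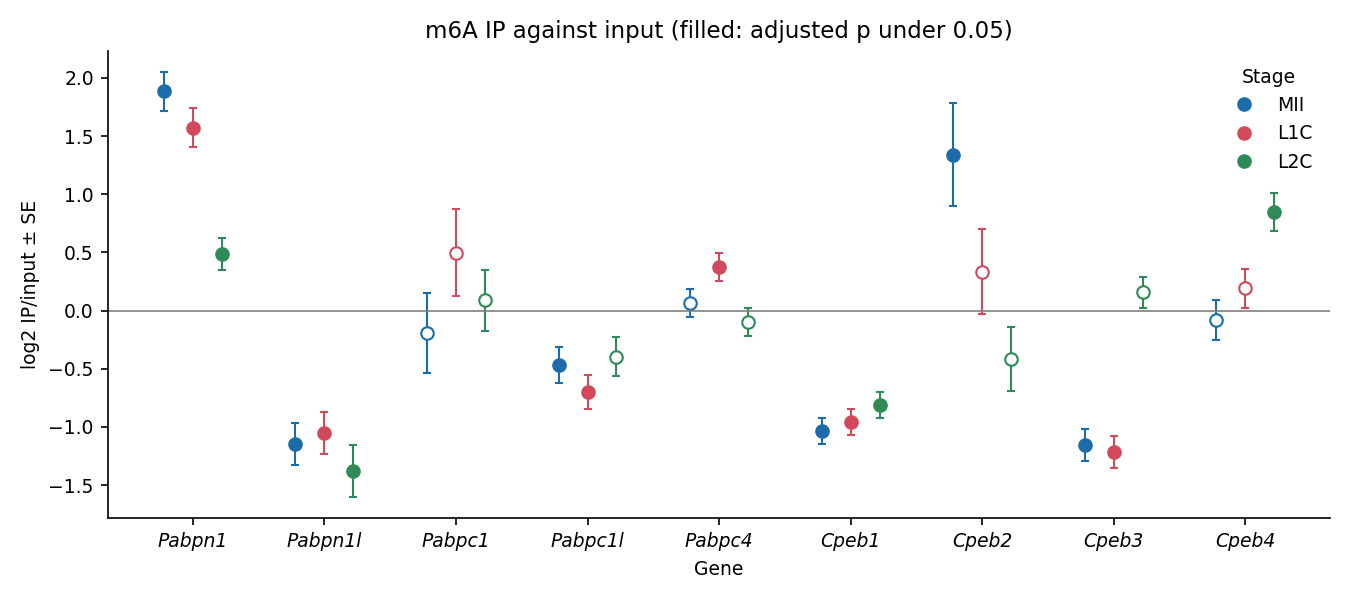
Log2 ratio of IP to input for the 9 genes at MII, L1C and L2C, with bars of 1 standard error on each side and a line at 0. Pabpn1 lies above 0 at the 3 stages, Cpeb1 and Pabpn1l lie below 0 at all of them, and Cpeb3 moves from about −1.2 at MII and L1C to 0.16 at L2C.

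Cpeb1 was depleted at all 3 stages and Cpeb3 at the first 2. Cpeb1 was at 720, 676 and 690 CPM in MII input and at 346, 362 and 309 in IP, and at 404, 378 and 486 against 226, 220 and 207 at L1C. At L2C it was at 55.4, 66.9 and 59.3 against 33.7, 36.9 and 32.9. IP was lower without overlap each time, by 2.05-fold at MII (log2 −1.04, SE 0.111, adjusted p = 4.13e-07) and 1.76-fold at L2C (log2 −0.81, SE 0.113, adjusted p = 1.24e-05). At L1C its log2 ratio was −0.96 (SE 0.111, adjusted p = 2e-06).

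Cpeb3, flat in the inputs, had the largest called gain of enrichment among the 9. It was at 68.5, 63.8 and 55.4 CPM in MII input and at 27.9, 31.6 and 24.7 in IP, and at 55.2, 52.6 and 58.7 against 22.5, 24.2 and 25.1 at L1C. At L2C input was at 59.6, 46.1 and 56.3 and IP at 67.6, 51.1 and 62.0, and the groups overlapped. IP was thus 2.23-fold lower at MII (SE 0.137 on the log2 scale, adjusted p = 1.48e-06) and 2.32-fold lower at L1C (log2 −1.21, SE 0.136, adjusted p = 1.35e-06), and within the spread of input at L2C (log2 0.16, adjusted p = 0.357). The change between stages was called, with a gain of 1.37 from L1C to L2C (SE 0.19, adjusted p = 0.000239) and of 1.31 from MII to L2C (SE 0.191, adjusted p = 7.27e-05). Cpeb3 overlaps March5 on the opposite strand, which had 648–1592 estimated counts in the inputs and 1075–4000 in the IP libraries, and A330032B11Rik, with 0–219 over all 18 libraries.

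Cpeb4 was near input at MII and L1C, with log2 ratios of −0.08 and 0.19 that did not pass the test. At L2C it was at 37.4, 24.6 and 25.3 CPM in input and at 48.5, 53.0 and 55.3 in IP, which did not overlap. That enrichment was 1.79-fold (log2 0.84, SE 0.163, adjusted p = 0.00039), and its gain from MII to L2C was 0.93 (SE 0.238, adjusted p = 0.00888). From L1C to L2C the gain was not called with all libraries, but was without L2C Input replicate 1 (log2 0.87, adjusted p = 0.0191).

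Cpeb2 was called enriched at MII (log2 1.34, SE 0.442, adjusted p = 0.0215) on 0.369, 0.419 and 0.201 CPM in input and 1.43, 0.415 and 0.739 in IP. The groups overlapped, and the call was lost without IP replicate 1 (adjusted p = 0.233) or Input replicate 3 (adjusted p = 0.0858) of MII. Its lower enrichment at L2C than at MII (log2 −1.76, SE 0.521, adjusted p = 0.0218) depended on the same libraries, with adjusted p = 0.119 and 0.0644 without each. With libraries blocked by replicate number, neither of these 2 Cpeb2 results was called (adjusted p = 0.05 at MII and 0.0554 for the change). At L1C and L2C it was not called, with log2 ratios of 0.33 and −0.42.

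Among the cytoplasmic PABPs, Pabpc1l was called lower in IP at MII and L1C, Pabpc4 higher at L1C and Pabpc1 at no stage. Pabpc1l was at 118, 153 and 171 CPM in L1C input and at 94.7, 91.6 and 85.4 in IP, which did not overlap (log2 −0.70, SE 0.145, adjusted p = 0.000899). Its depletion at MII was 1.38-fold (log2 −0.47, SE 0.152, adjusted p = 0.0198) and was not called under library size scaling (log2 −0.23, adjusted p = 0.238), nor without Input replicate 1 (adjusted p = 0.0942) or 2 (0.0513) or IP replicate 1 (0.0985) or 3 (0.06) of MII. At L2C its log2 ratio was −0.40 (adjusted p = 0.0628), and it was called without IP replicate 1 (adjusted p = 0.0412).

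Pabpc4 was at 32.5, 44.5 and 34.5 CPM in L1C input and at 48.3, 44.9 and 51.3 in IP, a 1.3-fold enrichment (log2 0.38, SE 0.12, adjusted p = 0.0207). This call was lost without Input replicate 1 (adjusted p = 0.102) or 3 (0.089) or IP replicate 1 (0.0935) or 3 (0.0823) of L1C, and with the copies summed in (log2 0.21, adjusted p = 0.128). With the copies summed, IP was lower than input at L2C (log2 −0.38, adjusted p = 0.00719), and the change of enrichment was −0.59 from L1C to L2C (adjusted p = 0.0175) and −0.47 from MII to L2C (adjusted p = 0.0299), none of which was called for Pabpc4 alone by edgeR with all libraries. DESeq2 called the change from L1C to L2C for Pabpc4 alone (log2 −0.52, adjusted p = 0.0196). Without L1C Input replicate 2, the change from L1C to L2C was called for Pabpc4 alone (log2 −0.63, adjusted p = 0.0188). Pabpc1 was not called at any stage, with log2 ratios of −0.20, 0.50 and 0.09.

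Of the 9 genes, 2 were called higher and 4 lower in IP at MII, against 17.7% and 21% of all genes tested. At L1C 2 were higher and 4 lower, against 15.8% and 18.2%, and at L2C 2 were higher and 2 lower, against 22% each way. The shares of all calls that were higher, 45.7%, 46.5% and 50.0% at the 3 stages, became 61.7%, 70.9% and 67.6% when libraries were scaled by size alone, which moved the median log2 ratio of all genes by 0.199, 0.3 and 0.253. For the change of enrichment, none of the 9 genes was called from MII to L1C (3.13% of all genes higher, 4.21% lower), and none had an unadjusted p under 0.05 or was called by DESeq2. From L1C to L2C 1 gene was higher and 1 lower (5% and 4.47% of all genes). From MII to L2C 2 were higher and 2 lower (11.1% and 9.21%).

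The other genes of the pathway were read from 4 lists. Among 21 tested relatives and partners of PABP, 4 had gone up and 10 down by L1C, with a median log2 change of −0.28 against 0.16 for all genes. Paip2, an inhibitor of PABPC, was among the higher (log2 change 2.45, SE 0.162, adjusted p = 2.72e-08), and Tob2, which links PABPC to deadenylation, among the lower (−1.70, SE 0.163, adjusted p = 1.11e-06). The shares were 19.0% and 47.6% of the list against 31.9% and 24.3% of all genes. From L1C to L2C 8 were higher and 8 lower, 38.1% each against 44.1% and 38.8%, including the scaffold Eif4g1, the direct contact of PABPC (2.40, SE 0.119, adjusted p = 1.66e-10), and Paip2b, a second PABPC inhibitor (−1.54, SE 0.116, adjusted p = 1.42e-08).

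Of 29 CPEB cofactors and masking factors, 8 were higher and 14 lower from MII to L1C, and 13 higher and 14 lower from L1C to L2C. These are 27.6% and 48.3% of the list in the first step, against 31.9% and 24.3% of all genes, and 44.8% and 48.3% in the second, against 44.1% and 38.8%. Cdk1, a kinase that phosphorylates CPEB1, was higher in both steps (log2 change 4.38, SE 0.154, adjusted p = 8.08e-11, and 3.14, SE 0.13, adjusted p = 3.04e-11). Zar1, an oocyte mRNA storage protein, was lower in both steps (−1.76, SE 0.161, and −5.53, SE 0.193). Eif4enif1, the eIF4E-binding repressor 4E-T, was listed at 0 in the L2C inputs after a mean of 446 ± 62.8 CPM (SD, n = 3) at L1C, although the Ctrl libraries of the same stage held 1278–2091 exon counts of it.

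The 17 mRNAs known to be translated through cytoplasmic polyadenylation in the oocyte were mostly lower at L2C than at L1C, 14 lower and 2 higher (82.4% and 11.8%, against 38.8% and 44.1% of all genes), with a median log2 change of −2.09 against 0.17 for all genes. The falls with the smallest p were those of Dcp1a, a decapping cofactor (−3.27, SE 0.119, adjusted p = 9.73e-12), and Fbxo43, the EMI2 inhibitor of the anaphase-promoting complex (−3.38, SE 0.124, adjusted p = 1.03e-11). The higher ones were Tpx2, a spindle factor (0.48, SE 0.112, adjusted p = 0.00104), and Orc6, of the origin recognition complex (0.35, SE 0.129, adjusted p = 0.02). From MII to L1C 4 of these mRNAs were higher and 8 lower (23.5% and 47.1%, against 31.9% and 24.3%). Of 10 nuclear poly(A) enzymes and decay adaptors, 3 were higher and 2 lower in the first step, and 7 higher and 3 lower in the second (70.0% and 30%, against 44.1% and 38.8% of all genes), with a median of 1.85. Ncbp1, a cap-binding subunit, rose 70.6-fold from L1C to L2C, the direction of Pabpn1 (log2 change 6.14, SE 0.151, adjusted p = 6.12e-13).

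In IP against input at MII, 9 of the 21 PABP partners were higher and 7 lower, 9 and 11 of the 29 CPEB cofactors, 7 and 9 of the 17 polyadenylated mRNAs, and 5 and 2 of the 10 nuclear factors. The higher shares were 42.9%, 31.0%, 41.2% and 50.0% of the lists against 17.7% of all genes, and the lower shares 33.3%, 37.9%, 52.9% and 20% against 21%. At L1C the same lists gave 5 and 8, 7 and 11, 6 and 8, and 2 and 2. Those are higher shares of 23.8%, 24.1%, 35.3% and 20% against 15.8%, and lower shares of 38.1%, 37.9%, 47.1% and 20% against 18.2%. At L2C the counts were 8 and 7, 5 and 13, 5 and 6, and 4 and 4 in that order, with median log2 ratios of 0.03, −0.23, 0.08 and 0.01 against 0.09 for all genes, of which 22% were called each way. Pan3, a subunit of the PABP-dependent deadenylase, was enriched at MII (1.08, SE 0.152, adjusted p = 1.2e-05), L1C (1.71, SE 0.154) and L2C (0.99, SE 0.147), and its partner Pan2 was depleted at the same 3 stages (−2.33, SE 0.132, −2.02, SE 0.131, and −1.59, SE 0.13). The 2 subunits of that complex therefore stood on opposite sides of input, as Pabpn1 and Pabpn1l did. The change of enrichment from MII to L2C was called for 4 higher and 4 lower PABP partners, 3 and 7 CPEB cofactors, 5 and 3 polyadenylated mRNAs, and 1 and 3 nuclear factors, against 11.1% and 9.21% of all genes.

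Knockdown of Ythdc1 addressed how these mRNAs differed at L2C when the nuclear reader was reduced. Cpeb2, Pabpc1 and Pabpc4 were higher in KD than in Ctrl and Pabpn1 was lower. Cpeb2 was at 67.2, 67.9 and 75.7 CPM of the merged table in KD and at 37.4, 36.5 and 34.8 in Ctrl. Every KD library stood above every Ctrl library, and the difference was 1.94-fold (log2 0.95, SE 0.113, adjusted p = 5.68e-07). Pabpc4 was at 282, 320 and 283 CPM against 223, 233 and 245, again without overlap (1.26-fold, log2 0.34, SE 0.0759, adjusted p = 0.000647). With its copies summed, the result differed between the merged table and the whole annotation, which differ in copies covered, libraries and genes tested. On the merged table, which holds the copies up to chromosome 7, it was called higher (log2 0.18, adjusted p = 0.0399), and on the whole annotation, with all 9 copies and 5 libraries, it was not called (log2 −0.08, adjusted p = 0.452). On the whole annotation the copies' share of the exon counts was 46.4–47.9% in KD and 60.5–62.1% in Ctrl.

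Cpeb1 was at 69.8, 61.8 and 72.2 CPM in KD and at 88.3, 78.1 and 65.5 in Ctrl, which overlapped (log2 −0.19, SE 0.117, 95% interval −0.422 to 0.0386, adjusted p = 0.153). It was called lower without Ctrl replicate 3 (log2 −0.29, adjusted p = 0.0192) and under library size scaling (−0.31, adjusted p = 0.0219). Pabpc1l had 13–29 counts in KD and 14–16 in Ctrl, too few to tell a difference (log2 0.45, SE 0.376, 95% interval −0.289 to 1.19, adjusted p = 0.295). Of these 4 genes, 2 were called higher and 0 lower by edgeR, by DESeq2 and at an unadjusted p under 0.05, against 33.5% and 37.4% of all genes in the table.

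The other 5 genes rest on 2 KD and 3 Ctrl libraries. Pabpc1 was at 439 and 431 CPM in KD and at 253, 253 and 265 in Ctrl (1.69-fold higher, log2 0.76, SE 0.0731, adjusted p = 3.18e-07). Pabpn1 was at 740 and 716 CPM against 887, 899 and 934 (1.25-fold lower, log2 −0.32, SE 0.0677, adjusted p = 0.000663). Neither pair of groups overlapped, so the general cytoplasmic gene was higher and the nuclear gene lower in the same embryos. Pabpn1l, with 20 and 14 counts in KD and 7, 2 and 8 in Ctrl, was 3.49-fold higher (log2 1.80, SE 0.576, adjusted p = 0.0115), a call that rests on these few counts. Without KD replicate 1, which leaves 1 KD library, its log2 difference was 1.63. Cpeb3 was at 18.0 and 21.7 CPM against 16.7, 13.5 and 15.7 (log2 0.38, SE 0.149, adjusted p = 0.0361). This call was lost without Ctrl replicate 2 (adjusted p = 0.164), under DESeq2 (0.0601), under library size scaling (0.0926) and with no filter (0.0502). Without KD replicate 2, which leaves 1 KD library, the log2 difference of Cpeb3 was 0.25.

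Cpeb4 was at 161 and 140 CPM against 141, 130 and 119 and was not called (log2 0.21, SE 0.0968, adjusted p = 0.0667). It was called under DESeq2 (adjusted p = 0.0467) and without Ctrl replicate 1 (0.0339). Without KD replicate 2, which leaves 1 KD library, the log2 difference of Cpeb4 was 0.32. Of these 5 genes, 3 were higher and 1 lower, against 30.5% and 36.4% of all 17074 genes tested. Both oocyte markers and late 2-cell markers were lower in KD, at summed levels of 776.6–848.9 against 1620–1751 CPM and of 315.7–357.2 against 1088–1133 CPM. Sperm markers summed to 0–0.107 CPM in KD against 2.105–4.134 in Ctrl, and cumulus markers to 8.026–9.897 against 8.474–11.3, which overlapped. The part of these marker differences in the changes of the 9 genes was not tested.

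**Figure D4:**
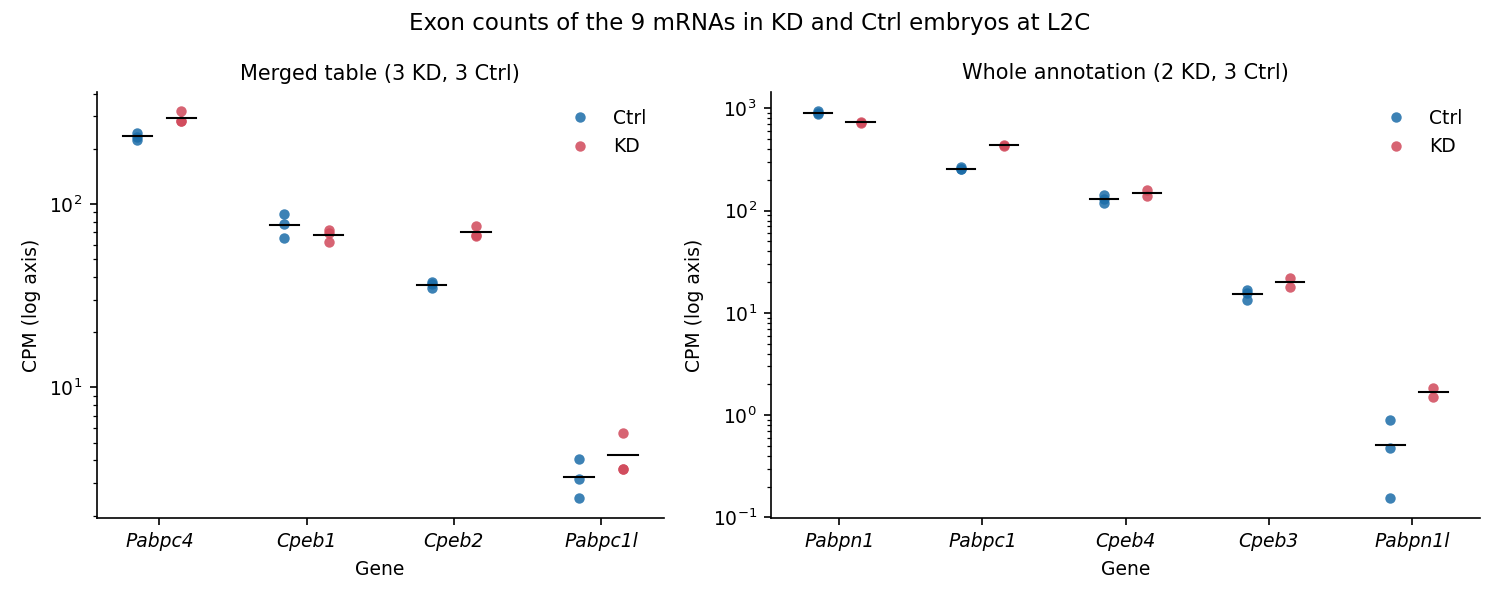
CPM of the 9 genes in KD and Ctrl L2C embryos on a log axis, with 1 point for each library, for 3 KD and 3 Ctrl libraries in the 4 genes of the merged table and for 2 KD and 3 Ctrl libraries in the other 5. KD points lie above Ctrl points for Cpeb2, Pabpc4, Pabpc1, Cpeb3 and Pabpn1l and below them for Pabpn1.

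Of the pathway lists on the whole annotation, 9 of 20 tested PABP partners were higher in KD and 4 lower, 10 and 5 of 29 CPEB cofactors, 2 and 9 of 17 polyadenylated mRNAs, and 6 and 0 of 10 nuclear factors. The higher shares were 45.0%, 34.5%, 11.8% and 60.0% against 30.5% of all genes, and the lower shares 20%, 17.2%, 52.9% and 0% against 36.4%. Gspt1, the release factor eRF3a that binds PABPC, was higher (log2 1.16, SE 0.104, adjusted p = 1.42e-07), and so was Zfc3h1, of the nuclear poly(A) tail exosome targeting complex (1.03, SE 0.0905, adjusted p = 1.22e-07). Among the lower were Eif4e1b, the oocyte form of eIF4E (−2.31, SE 0.124, adjusted p = 9.1e-10), Spin1 (−1.12, SE 0.0751, adjusted p = 7.18e-09) and Btg4, the deadenylase adaptor that works with PABPN1L (−0.97, SE 0.0727, adjusted p = 2.33e-08). The median log2 difference was 0.17 for the PABP partners, −0.10 for the CPEB cofactors, −0.32 for the polyadenylated mRNAs and 0.52 for the nuclear factors, against −0.09 for all genes.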

How the data were processed

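Estimated counts and TPM per gene span, introns included, were made by the authors with kallisto on GRCm38 with Ensembl 99 genes for the 18 SLIM-seq libraries and deposited as merged tables. The estimated counts were rounded to whole numbers here, and the deposited TPM served only for a second order of levels. Exon counts of the 6 KD and Ctrl libraries were made by the authors with Trimmomatic, HISAT2 and featureCounts, with no strand option and without multimapping reads. The merged KD table covers 25739 genes, 46.4% of those annotated, so genes beyond it were read from the per-library count files. Gene symbols came from GENCODE M21, which matched 55144 of 55471 IDs. Promoters came from RefSeq.

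Counts were tested with edgeR 4.0.16 in R 4.3.3 (TMM scaling, filterByExpr, quasi-likelihood test, Benjamini-Hochberg adjustment over all genes tested, threshold 0.05). The 9 inputs were fitted together by stage, all 18 SLIM-seq libraries together by stage and kind, and KD against Ctrl on the merged table and on the whole annotation. SE is the log2 change divided by the square root of F, and 95% intervals are 1.96 SE on each side. Procedures were also run on simulated counts, in which all but a small set of genes had equal means in all groups. Many genes differ between stages in the real data, so that run does not show how the scaling behaves there. Alternatives were DESeq2 1.42.0, library size scaling, no filter on low counts, the libraries of each comparison alone, a replicate block and each library left out. Copies were found with BLAST 2.17.0. Course similarity used a pseudocount of 0.1 CPM and genes with a mean of at least 10 CPM.

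All 9 genes were named in every comparison, with the targeted gene Ythdc1, up to 2 genes per direction with the smallest p from each pathway list, the 3 genes of most similar course and genes that overlap a member. Of the list genes named by this rule, some are not reported here. The members and lists were chosen with earlier results of these data known. The mean chi-square per gene between replicates was 2.673 to 37.06, so no pair agreed within the sampling noise of one library deposited again, which does not show that replicates come from separate collections. Inputs came from the batches of the IP samples, but no source says that replicate numbers mark them, and same-numbered libraries did not deviate together (correlations of −0.156 to 0.133).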

Additional observations from a re-analysis of the deposited data

Results flagged for a closer look

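For 4 of the 9 genes the enrichment of IP over input differed between stages by a test of the difference itself. From L1C to L2C it changed by 1.37 on the log2 scale for Cpeb3 and by −1.08 for Pabpn1. From MII to L2C it changed by 1.31 for Cpeb3, 0.926 for Cpeb4, −1.40 for Pabpn1 and −1.76 for Cpeb2. The value for Cpeb2 rests on 3–7 estimated counts per input at MII and was not called when libraries were blocked by replicate number (adjusted p = 0.0554). It was also lost without IP replicate 1 (adjusted p = 0.119) or Input replicate 3 (0.0644) of MII. Among all genes tested, 5% were called higher and 4.47% lower from L1C to L2C, and 11.1% and 9.21% from MII to L2C. No share over both comparisons together was computed.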

How the results depend on the processing

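Over the alternatives, 1123 of 1177 values for single genes and comparisons kept their side of the threshold, 36 fell short of it and 18 passed it. The sign changed in 20 of these values, of which 0 were called in either fit. The totals include the whole-annotation KD fits that leave 1 KD library. On the whole annotation, Pabpc4 summed with its copies was not called in KD (log2 −0.08), the sign opposite to that of Pabpc4 alone. The replicate block left 1 member higher in IP at MII (Cpeb2 lost) and 1 with lower enrichment at L2C than at MII (Cpeb2 lost), and changed no other call. Using only the libraries of the comparison gave 2 higher from MII to L1C and 1 higher in IP at MII (Cpeb2 was not tested in either), 1 higher in IP at L1C (Pabpc4 lost) and 2 with lower enrichment at L2C than at L1C (Pabpc4 added). No filter on low counts gave 1 higher in IP at L1C and lost Cpeb4 from MII to L1C (adjusted p = 0.0534), DESeq2 gave 2 with lower enrichment at L2C than at L1C, and library size scaling gave 1 lower in KD in the merged table. With each library left out in turn, the members higher from MII to L1C numbered 1 to 3, those higher in IP at MII 1 to 2 and at L1C 1 to 2. For the change of enrichment from L1C to L2C the range was 1 to 2 higher and 1 to 2 lower, from MII to L2C 1 to 2 lower, and for the merged KD comparison 0 to 1 lower. Library size scaling also moved Cpeb3 in IP at L2C (log2 0.41, adjusted p = 0.0103) and Cpeb4 in IP at L1C (0.49, adjusted p = 0.0281) past the threshold. The cause of these changes was not tested. DESeq2 moved the median log2 change of all genes by 0.127 from L1C to L2C, and library size scaling moved it by 0.144 from MII to L2C and by −0.124 in the merged KD table. The share of calls with higher enrichment went from 52.8% to 42.5% under DESeq2 from L1C to L2C and from 42.6% to 53.3% under library size scaling from MII to L1C. Depth limits Cpeb2, Pabpc1 and Pabpn1 before L2C, and Pabpc1l and Pabpn1l in KD and Ctrl.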
